A study of Mus musculus with 20 samples.

Results

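The genes described here are the water channels and the vasopressin receptor of the mouse kidney: the aquaporins Aqp1, Aqp2, Aqp3, Aqp4, Aqp6, Aqp7, Aqp8 and Aqp11, and Avpr2, the V2 vasopressin receptor. They were chosen by name, with earlier results of these data known. They are 9 of the 25700 genes in the count files, and all 9 passed the filter on low counts that left 15430 genes. RNA was sequenced from 20 mouse libraries of a study of alkali therapy in a kidney disease caused by oxalate, which forms crystals in the tubules. The 4 groups, of 5 libraries each, were oxalate mice on alkali therapy, labelled Oxalate late; untreated oxalate mice, labelled Oxalate; control mice on alkali therapy, labelled Control late; and untreated control mice, labelled Control. The labels give no strain, sex, age, alkali agent, dose, time or tissue, and do not say what late means, so the alkali and whatever late denotes cannot be told apart. They also do not say that the libraries came from separate animals, so p-values judge group differences against the spread between these libraries. Libraries are called here by the number in their title.

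Aquaporins are membrane channels for water, and the aquaglyceroporins among them also pass glycerol. In the kidney, water leaves the proximal tubule and the thin descending limb through Aqp1 without hormonal control. In the principal cells of the collecting duct, vasopressin binds Avpr2, a Gs-coupled receptor that raises cAMP, and vesicles carrying Aqp2 then fuse with the apical membrane, while Aqp3 and Aqp4 let the water out on the basolateral side. Aqp4 is in the mouse also made by the S3 segment, the last part of the proximal tubule.

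Total counts ran from 25547840 to 39550689 per library. Kidney tubule genes were abundant in every library: 7 early proximal tubule markers, among them Lrp2 and Slc34a1, summed to between 3639 and 14099 CPM (counts scaled to the depth of the library). Adipoq, made by fat cells, exceeded 1 CPM in 6 libraries, namely alkali-treated oxalate library 33, untreated oxalate library 32, alkali-treated control libraries 1 and 4, and untreated control libraries 9 and 26. Its highest values were 35.4 CPM in alkali-treated oxalate library 33 and 29.7 CPM in untreated control library 26. The 5 urothelium markers also had the highest sums of their groups there, at 51.3 and 25.7 CPM. Library 26 had the highest sum of the 5 thin limb markers, at 261 CPM. These libraries also had the most Aqp4 of their groups, at 35.5 and 67.9 CPM. The part of uneven tissue content in the Aqp4 values was not tested. CPM values are scaled by TMM, which sets libraries so that most genes keep their level.

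The levels of the channels can be ranked on the scale of CPM per kilobase of exon, which allows genes of different length to be compared. Aqp1 led in all 4 groups, with means of 223 CPM per kb in alkali-treated oxalate mice, 204 in untreated oxalate mice, 387 in alkali-treated controls and 387 in untreated controls. Aqp2 came next, with 120.4, 113, 86.1 and 83.4 CPM per kb in the same 4 groups, and Aqp3 followed with 64.1, 59.4, 62.7 and 57.2. Aqp6 ranked next in every group, and Aqp8 was last. In untreated controls the ranges of Aqp7, Avpr2, Aqp4 and Aqp11 overlapped from each to the next, at means of 9.09, 6.90, 6.81 and 6.74 CPM per kb. In untreated oxalate mice Aqp4 had 1.28 CPM per kb, below the range of Aqp11 at 3.59 and overlapping that of Aqp8 at 0.669. The range of Aqp1 over libraries overlapped that of Aqp2 in untreated oxalate mice, but not in the other 3 groups. Within each untreated oxalate library Aqp1 was above Aqp2.

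The summed level of the 8 channels was 456 ± 48.8 CPM per kb in alkali-treated oxalate mice, 408 ± 82.1 in untreated oxalate mice, 574 ± 37.9 in alkali-treated controls and 568 ± 15.5 in untreated controls (SD, n = 5 each). Aqp1 made up 48.8%, 49.7%, 67.2% and 68.2% of that sum in the same order of groups. Aqp4 made up 0.768%, 0.319%, 1.10% and 1.20% of it.

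**Figure D1:**
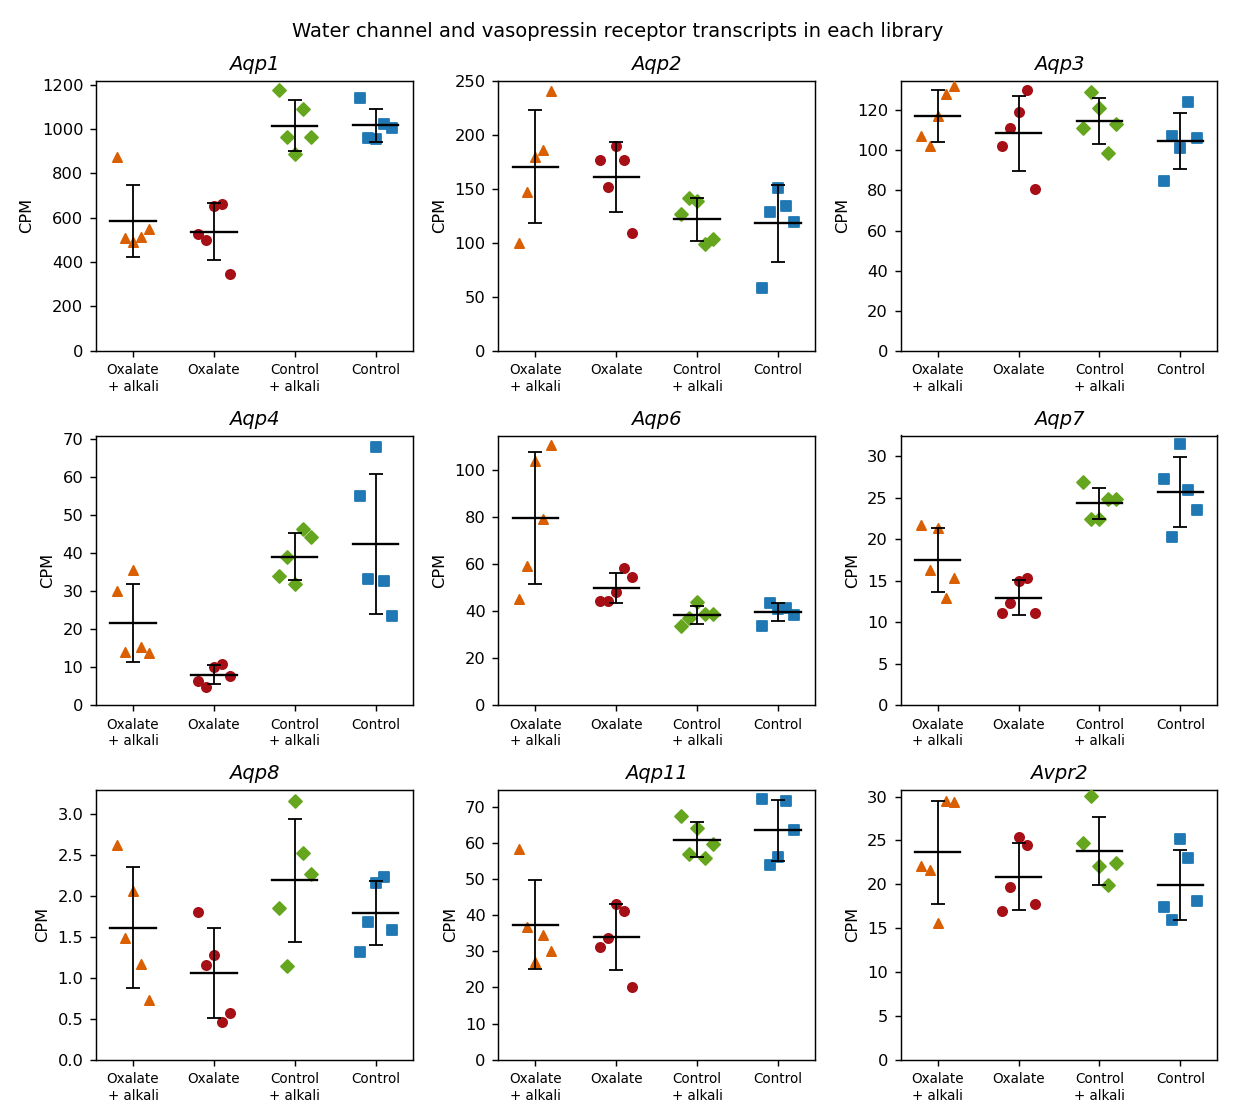
Level of each of the 9 genes in every library, in CPM on a linear axis, with 1 point per library and a bar at the group mean. Groups run from alkali-treated oxalate to untreated control. The Aqp4 points of untreated oxalate mice lie between 4.93 and 10.9 CPM, below every point of the other 3 groups.

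The first comparison asks which channels differed between oxalate and control mice without alkali. Of the 9 genes, 4 were lower in oxalate mice, Aqp4, Aqp7, Aqp1 and Aqp11, and none was higher, at an adjusted p under 0.05 in edgeR's quasi-likelihood test. Of all genes tested, 23.1% were lower and 26.4% higher. The median log2 fold change was -0.76 over the 9 genes and 0.00 over all genes tested. Aqp4 had the largest fall of the 9, and the main collecting duct channels Aqp2 and Aqp3 did not pass the test in either direction.

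Aqp4 had 6.26, 4.93, 10.2, 10.9 and 7.75 CPM in untreated oxalate libraries 12, 3, 32, 39 and 40. It had 55.1, 33.2, 67.9, 32.6 and 23.5 CPM in untreated control libraries 13, 19, 26, 35 and 9. Every oxalate library was below every control library, as it was for 15.4% of all genes tested. The log2 fold change was -2.41 ± 0.32 (SE), with an adjusted p of 8.56e-06. The mean was 8.01 ± 2.54 CPM in untreated oxalate mice and 42.5 ± 18.3 CPM in untreated controls (SD, n = 5 each). In bulk RNA such as this, fewer cells of a type and less RNA per cell cannot be told apart.

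Aqp1, Aqp7 and Aqp11 are channels of the proximal tubule. Aqp1 is the constitutive channel of both its membranes, and also sits in red blood cells and in the endothelium of the vasa recta. It had 526, 498, 652, 661 and 348 CPM in untreated oxalate libraries 12, 3, 32, 39 and 40, against 1139, 959.6, 954, 1024 and 1005 CPM in untreated control libraries 13, 19, 26, 35 and 9. The groups did not overlap, as for 15.4% of all genes in the lower direction, and the log2 fold change was -0.92 ± 0.17 (adjusted p = 0.000241). Of the 5 red blood cell markers none passed the test, with a median log2 fold change of -0.53. Of the 7 endothelial markers only Pecam1 passed, higher at a log2 fold change of 0.33 ± 0.11 (adjusted p = 0.0131). Of the 5 thin limb markers only Epha7 was called, higher at 1.20 ± 0.21 (adjusted p = 0.000150). Over all genes tested, 26.4% were higher and 23.1% lower. On alkali, 2 of the 5 red blood cell markers were lower in oxalate mice and all 7 endothelial markers were higher. The shares over all genes there were 17.1% lower and 23.4% higher. The part of these cell types in the Aqp1 value was not tested.

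Aqp7, an aquaglyceroporin of the S3 brush border that is also made by fat cells, had 11.1, 12.3, 15.02, 15.4 and 11.1 CPM in the untreated oxalate libraries, in the order used above, against 27.3, 20.3, 31.5, 25.9 and 23.5 CPM in the untreated control libraries. All oxalate values were below all control values, as for 15.4% of all genes tested. The log2 fold change was -0.98 ± 0.14 (adjusted p = 2.16e-05). The 5 fat cell markers summed to 0.390 to 9.84 CPM in untreated oxalate mice and to 0.0423 to 135 CPM in untreated controls, and none of the 4 that could be tested was called. Without the 6 libraries with Adipoq above 1 CPM the Aqp7 value was -1.02 ± 0.17 (adjusted p = 0.000367). Aqp11, a channel of the endoplasmic reticulum whose loss gives polycystic kidneys in mice, had 31.2, 33.6, 43.2, 41.01 and 20.2 CPM in untreated oxalate mice, against 72.04, 53.8, 56.02, 71.7 and 63.6 CPM in untreated controls. These groups were again separate, as for the same 15.4% of all genes, with a log2 fold change of -0.91 ± 0.19 (adjusted p = 0.000651).

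Proximal tubule markers moved with these 4 channels. All 7 early proximal tubule markers and 6 of 7 S3 markers were lower in untreated oxalate mice, beside 23.1% of all genes, with median log2 fold changes of -0.73 and -1.10. The S3 amino acid transporter Slc7a13 had a log2 fold change of -1.76 ± 0.30 (adjusted p = 0.000109), and the endocytic receptor Lrp2 one of -1.22 ± 0.25 (adjusted p = 0.000509). The S3 markers summed to between 1531 and 3121 CPM in untreated oxalate mice and to between 4901 and 5717 CPM in untreated controls. Aqp4 had a lower log2 fold change than both of these markers, at -2.41, and the part of the marker change in it was not tested.

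Aqp2 and Aqp3 of the principal cell were not called in either direction. Aqp2 had 177, 152, 190.0, 177 and 109 CPM in untreated oxalate libraries 12, 3, 32, 39 and 40, against 57.8, 129, 151, 134 and 119 CPM in untreated control libraries 13, 19, 26, 35 and 9. The groups overlapped through oxalate library 40, and control library 13 stood lowest. The log2 fold change was 0.44 ± 0.23 (adjusted p = 0.112). Aqp3, which passes glycerol as well as water, had 102, 111, 119, 130.1 and 80.5 CPM in untreated oxalate mice and 84.9, 107, 101, 124 and 106 CPM in untreated controls. These values overlapped across nearly the whole range, with a log2 fold change of 0.05 ± 0.12 (adjusted p = 0.731).

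Aqp6, a channel of intracellular vesicles in intercalated cells, had 44.4, 44.4, 48.4, 58.6 and 54.7 CPM in untreated oxalate mice against 33.7, 43.6, 40.9, 41.6 and 38.6 CPM in untreated controls. The groups did not overlap, as for 18.5% of all genes in the higher direction, but the log2 fold change of 0.34 ± 0.17 did not pass the test (adjusted p = 0.115). Aqp2, Aqp3 and Aqp6 depend on the scaling. With total-count scaling, which moves the median of all genes tested by 0.30 in this comparison, they were called higher at log2 fold changes of 0.72, 0.34 and 0.64 (adjusted p = 0.0162, 0.0185 and 0.0146), so relative to that shift Aqp3 again stood near no change. In a fit of these 2 groups only, Aqp6 was also called higher, at 0.34 (adjusted p = 0.0149).

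Avpr2 had 16.98, 19.7, 25.4, 24.5 and 17.8 CPM in untreated oxalate libraries 12, 3, 32, 39 and 40, against 17.4, 15.9, 25.2, 23.00 and 18.1 CPM in untreated control libraries 13, 19, 26, 35 and 9. The receptor showed nearly the same range in both groups, with a log2 fold change of 0.07 ± 0.17 (adjusted p = 0.771). Its count is uncertain, since 2347 of its 2886 exonic bases overlap Arhgap4 on the opposite strand and the strand setting of the counting is not given in the sources used here. Arhgap4 averaged 26.3 CPM in untreated oxalate mice and 19.4 CPM in untreated controls, a log2 fold change of 0.44 ± 0.12 (adjusted p = 0.00400). Aqp8, an intracellular channel of tubule cells, was the lowest of the 9, with 0.463 to 1.81 CPM in untreated oxalate mice and 1.31 to 2.23 CPM in untreated controls, and its log2 fold change of -0.76 ± 0.37 did not pass the test (adjusted p = 0.0916). Without untreated oxalate library 12 it was called lower, at -1.04 (adjusted p = 0.0308).

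The sequences before the start sites of Aqp2 and Aqp3, which were not called, and of Aqp1 and Aqp7, which fell, are shown so that they can be read side by side. Each is the 250 bases upstream of the RefSeq start site in GRCm38.p6, on the gene's strand: Aqp2 at chr15:99578806-99579055 (plus strand), Aqp3 at chr4:41098184-41098433 (minus strand), Aqp1 at chr6:55336049-55336298 (plus strand) and Aqp7 at chr4:41048137-41048386 (minus strand). Capitals mark matches on either strand to TGACG (the half-site of the cAMP response element), to the GATA words AGATAA and AGATAG or TGATAA and TGATAG, to TATAA, or to GTTAAT (a half-site of HNF1 factors).
Aqp2: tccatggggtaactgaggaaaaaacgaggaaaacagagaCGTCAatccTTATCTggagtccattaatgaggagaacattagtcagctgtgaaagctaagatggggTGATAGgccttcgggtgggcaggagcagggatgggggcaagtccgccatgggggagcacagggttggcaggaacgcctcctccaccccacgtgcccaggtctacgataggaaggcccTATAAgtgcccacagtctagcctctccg
Aqp3: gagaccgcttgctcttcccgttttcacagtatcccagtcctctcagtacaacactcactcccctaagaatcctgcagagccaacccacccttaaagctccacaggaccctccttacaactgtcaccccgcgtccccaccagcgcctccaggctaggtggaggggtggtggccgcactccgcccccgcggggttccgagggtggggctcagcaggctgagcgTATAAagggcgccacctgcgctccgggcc
Aqp1: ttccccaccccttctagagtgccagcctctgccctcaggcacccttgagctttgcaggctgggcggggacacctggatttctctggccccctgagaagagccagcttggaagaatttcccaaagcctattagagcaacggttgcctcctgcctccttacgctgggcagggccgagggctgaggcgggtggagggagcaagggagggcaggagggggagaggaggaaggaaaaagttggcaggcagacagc
Aqp7: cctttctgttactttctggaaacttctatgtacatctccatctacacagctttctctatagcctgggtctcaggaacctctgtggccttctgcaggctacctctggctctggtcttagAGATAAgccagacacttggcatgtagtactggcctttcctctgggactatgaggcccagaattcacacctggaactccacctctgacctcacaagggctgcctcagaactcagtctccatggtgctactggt
Aqp2 held a TGACG match on the minus strand at -211 to -207 from the start site, GATA words at -202 to -197 and -145 to -140, and TATAA at -28 to -24. Aqp3 held TATAA at -29 to -25, Aqp7 a GATA word at -132 to -127, and Aqp1 none of the words. RefSeq listed 2 start sites for Aqp7. The site nearest the annotated start of the gene was used, so the Aqp7 sequence and position rest on that choice. Of 32851 mouse promoters of this length, 17.8% held TGACG, 26.5% a GATA word, 22.8% TATAA and 6.43% GTTAAT, on either strand. Each match is a description of letters. Of the other members whose promoters were examined, Aqp6, Aqp8 and Aqp11 held none of the words in the same window. Avpr2 held TATAA on the minus strand at -44 to -40. In the genome Aqp2 (GRCm38 chr15:99579055-99584547) and Aqp6 (chr15:99601400-99605477) are near neighbours, as are Aqp3 (chr4:41092722-41098183) and Aqp7 (chr4:41033074-41048139).

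Whether Aqp4 fell further than the other channels was tested on the ratio of its count to that of each other gene in the same library, which no scaling can change. In untreated oxalate mice against untreated controls, this log2 ratio was lower for 7 of 8 partners in exact two-sided permutation tests, adjusted over 40 such tests. The difference was -2.85 against Aqp2 and -2.41 against Aqp3, its partners in the principal cell (adjusted p = 0.0289 each). It was -1.41 against Aqp1 and -1.38 against Aqp7 (adjusted p = 0.0289 each, exact permutation test), and -1.41 against Aqp11 (adjusted p = 0.0454). It was -2.69 against Aqp6 and -2.43 against Avpr2 (adjusted p = 0.0289 each, exact permutation test). Against Aqp8 the difference of -1.46 did not pass (adjusted p = 0.115). The ratio was thus lower both to the collecting duct genes and to the proximal tubule channels that fell with Aqp4. The members were chosen with earlier results of these data known, and Aqp4 had the largest fall among them. These p-values are therefore not independent support for singling out Aqp4.

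The smallest p these permutations can give with 5 libraries against 5 is 0.00794, so the adjusted values sit near the threshold. Without untreated oxalate library 3 or 12, none of the 8 ratios passed in this comparison. Their differences without library 12 kept their sign, with -2.74 against Aqp2 (adjusted p = 0.0529) and -1.36 against Aqp7 (adjusted p = 0.0577) in the exact permutation test.

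**Figure D2:**
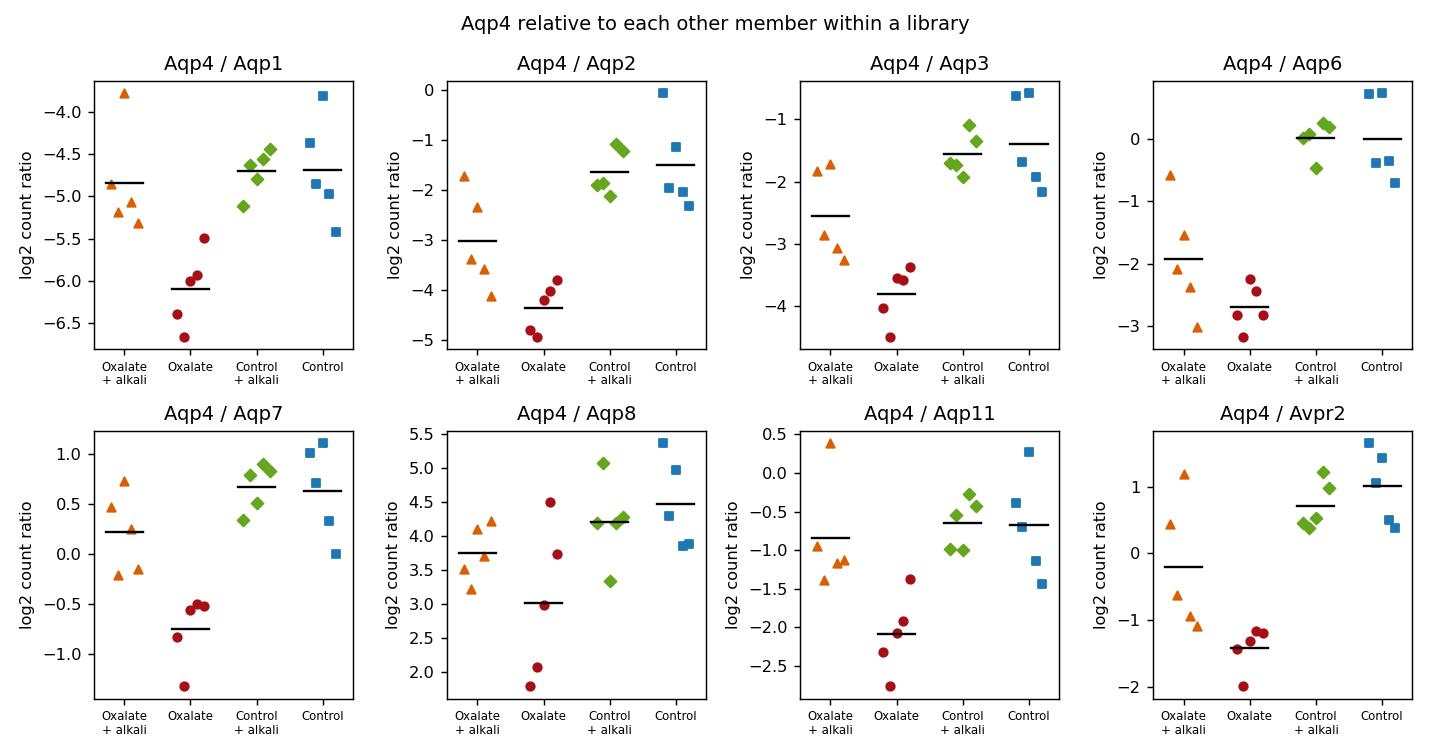
Log2 ratio of the Aqp4 count to the count of each of the other 8 genes within each library, with 1 point per library and a bar at the group mean. In untreated oxalate mice the ratio to Aqp2 averages -4.36, against -1.51 in untreated controls.

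The second comparison asks what alkali changed in oxalate mice. Of the 9 genes, 2 were higher in alkali-treated than in untreated oxalate mice, Aqp4 and Aqp6, and none was lower. Over all genes tested, 1.76% were higher and 2.33% lower. The median log2 fold change was 0.18 over the 9 genes and 0.01 over all genes tested.

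Aqp4 had 30.1, 14.04, 35.5, 15.3 and 13.8 CPM in alkali-treated oxalate libraries 2, 30, 33, 5 and 8, against 6.26, 4.93, 10.2, 10.9 and 7.75 CPM in untreated oxalate libraries 12, 3, 32, 39 and 40. Every alkali-treated library was above every untreated one, as for 1.91% of all genes tested, and libraries 2 and 33 were within the range of the untreated controls. The log2 fold change was 1.44 ± 0.31 (SE), with an adjusted p of 0.0161. The call was lost without untreated oxalate library 12, at 1.36 (adjusted p = 0.0552), and in a fit of the 2 oxalate groups only, at 1.45 (adjusted p = 0.0995). Without library 33, which held the most Adipoq RNA and the highest sum of urothelium markers, the value was 1.19. Without all 6 libraries with Adipoq above 1 CPM the value was 1.31 (adjusted p = 0.0190).

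Aqp6 had 45.2, 59.3, 104, 79.5 and 111 CPM in alkali-treated oxalate libraries 2, 30, 33, 5 and 8, against 44.4, 44.4, 48.4, 58.6 and 54.7 CPM in untreated oxalate libraries 12, 3, 32, 39 and 40. Library 2 lay inside the untreated range, library 30 just above it, and the other 3 well above it. The log2 fold change was 0.67 ± 0.17 (adjusted p = 0.0347). This call was lost without any 1 of 5 libraries (untreated oxalate 3 and 12, alkali-treated oxalate 5, 8 and 33, adjusted p from 0.0535 to 0.0990), with total-count scaling (0.64, adjusted p = 0.0933), in the fit of the 2 oxalate groups only (0.68, adjusted p = 0.214), and without the libraries with Adipoq (0.56, adjusted p = 0.104).

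The other proximal tubule channels were not called with all libraries. Aqp7 had 21.7, 16.3, 21.4, 12.9 and 15.3 CPM in alkali-treated oxalate libraries 2, 30, 33, 5 and 8, against 11.1, 12.3, 15.02, 15.4 and 11.1 CPM in the untreated oxalate libraries. The 2 groups overlapped, with a log2 fold change of 0.43 ± 0.14 (adjusted p = 0.0915). Without alkali-treated oxalate library 5 it was called, at 0.52 (adjusted p = 0.0443). Aqp1 had 874, 510.4, 489, 513 and 548 CPM in the same alkali-treated oxalate libraries, against 526, 498, 652, 661 and 348 CPM in the untreated oxalate libraries. Only library 2 stood apart, near the control range, and the log2 fold change was 0.13 ± 0.17 (adjusted p = 0.720). Aqp11 had 58.2, 36.8, 27.1, 34.5 and 30.01 CPM in alkali-treated oxalate mice, with library 2 again highest, and averaged 37.3 ± 12.3 CPM there and 33.8 ± 9.11 CPM in untreated oxalate mice (SD, n = 5 each).

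The S3 markers summed to 5157, 2754, 1951, 1997 and 1771 CPM in alkali-treated oxalate libraries 2, 30, 33, 5 and 8. Aqp4 was at 30.1, 14.04, 35.5, 15.3 and 13.8 CPM in the same order. Library 33 had the lowest Aqp1, at 489 CPM, and the lowest sum of early proximal tubule markers of its group, at 5083 CPM. It also held the most Adipoq RNA, at 35.4 CPM, and the highest sum of urothelium markers, at 51.3 CPM. Of the 7 early and the 7 S3 proximal tubule markers, none passed the test for alkali in oxalate mice, with median log2 fold changes of 0.47 and 0.34. Over all genes tested, 1.76% were higher and 2.33% lower there. Of 6 tubular injury markers, 4 were lower in that comparison, among them Vcam1 at -1.42 ± 0.25 (adjusted p = 0.00522) and Sox9 at -2.02 ± 0.41 (adjusted p = 0.0110), and of 6 macrophage markers only Lyz2 was called, lower at -1.61 ± 0.38 (adjusted p = 0.0250). The injury markers summed to 146 to 297 CPM in alkali-treated and to 298 to 663 CPM in untreated oxalate mice, and the macrophage markers to 251 to 801 CPM and to 643 to 2591 CPM in those groups. Library 2 had the lowest of both sums in its group, and the part of these markers in the channel values was not tested.

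Aqp2 had 99.9, 147, 180.1, 186 and 241 CPM in alkali-treated oxalate libraries 2, 30, 33, 5 and 8 and averaged 171 ± 52.1 CPM there, against 161 ± 32.4 CPM in untreated oxalate mice (SD, n = 5 each). Aqp3 averaged 117 ± 13.3 and 109 ± 18.8 CPM, and Avpr2 23.6 ± 5.89 and 20.9 ± 3.87 CPM, in alkali-treated and untreated oxalate mice. None of the 3 genes passed the test. Library 2, the lowest in Aqp2 and Aqp6, was the highest in Aqp1, Aqp7, Aqp8 and Aqp11 of its group.

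Relative to the other genes, Aqp4 was higher in alkali-treated than in untreated oxalate mice against 5 of 8 partners in exact two-sided permutation tests. The same limit from the choice of Aqp4 holds for these tests. The difference in log2 ratio was 1.25 against Aqp1, 1.26 against Aqp3, 0.96 against Aqp7 and 1.22 against Avpr2 (adjusted p = 0.0289 each), and 1.24 against Aqp11 (adjusted p = 0.0454, exact permutation test). It did not pass against Aqp2, at 1.32 (adjusted p = 0.0635, exact permutation test), Aqp6, at 0.78 (adjusted p = 0.178), or Aqp8, at 0.74 (adjusted p = 0.317). Without untreated oxalate library 3 or 12 none of the 8 passed, with 1.17 against Aqp1 without library 12 (adjusted p = 0.0529, exact permutation test), and without untreated oxalate library 32 only 2 did.

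**Figure D3:**
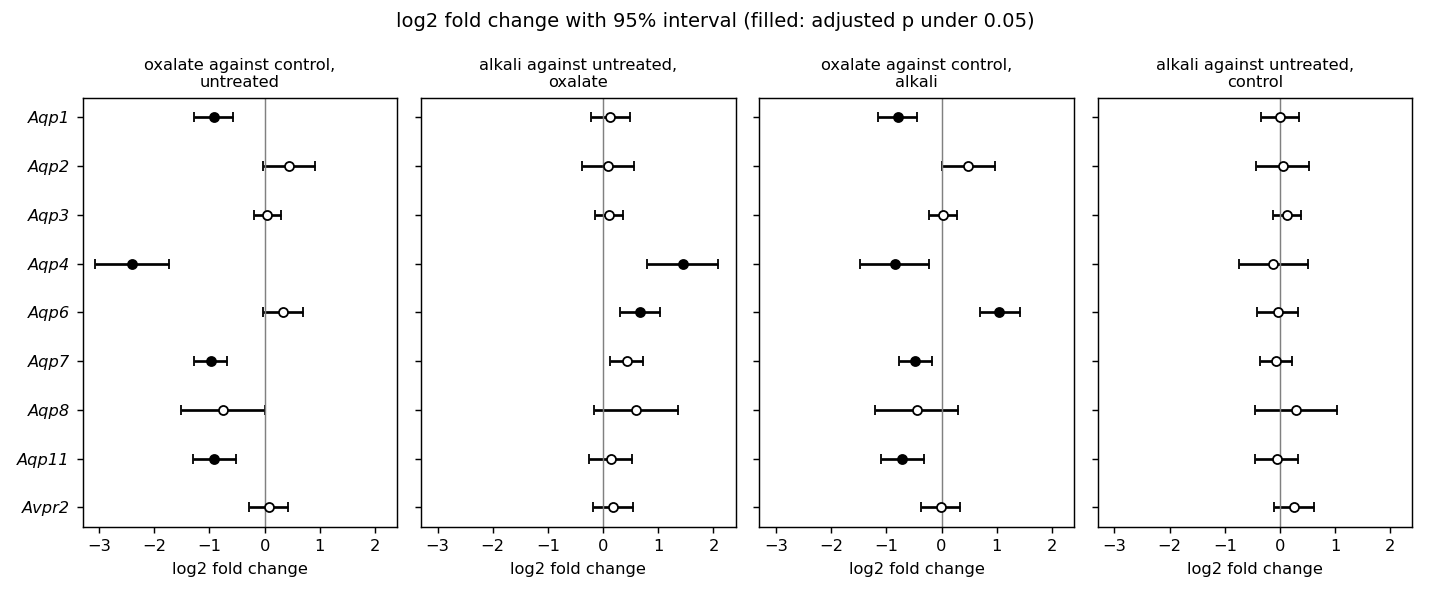
Log2 fold change of each gene with its 95% confidence interval from edgeR's quasi-likelihood fit, for the comparisons of oxalate and alkali. Aqp4 lies at -2.41 for oxalate against control without alkali and at 1.44 for alkali in oxalate mice, while Aqp3 lies at 0.05 and 0.11.

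In control mice alkali left all 9 genes without a call, as it did every gene tested (0% in edgeR, with 389 genes at an unadjusted p under 0.05 and 3 genes called by DESeq2). Aqp4 had 34.02, 39.02, 32.02, 46.4 and 44.3 CPM in alkali-treated control libraries 1, 27, 37, 4 and 7, against 55.1, 33.2, 67.9, 32.6 and 23.5 CPM in untreated control libraries 13, 19, 26, 35 and 9. The alkali-treated values lay inside the wider range of the untreated ones, and the log2 fold change was -0.12. No ratio of Aqp4 to another gene passed the exact permutation test in this comparison.

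The difference between the effect of alkali in oxalate mice and in control mice was tested as an interaction. It was 1.56 ± 0.43 for Aqp4, 0.72 ± 0.25 for Aqp6 and 0.51 ± 0.20 for Aqp7 on the log2 scale, with adjusted p-values of 0.409, 0.474 and 0.478. No gene passed in edgeR, where 1429 genes had an unadjusted p under 0.05, and 26 genes passed in DESeq2, none of them among the 9. The unadjusted p for Aqp4 was 0.00175. A difference in the effect of alkali on Aqp4 between oxalate and control mice thus did not pass the correction.

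Oxalate mice on alkali still differed from controls on alkali in 5 of the 9 genes, with 1 higher and 4 lower, beside 23.4% higher and 17.1% lower over all genes tested. Aqp6 was higher, at 79.8 ± 28.2 CPM in alkali-treated oxalate mice and 38.5 ± 3.76 CPM in alkali-treated controls (SD, n = 5 each), with a log2 fold change of 1.05 ± 0.18 (adjusted p = 0.000294). All 5 alkali-treated oxalate libraries were above all 5 alkali-treated control libraries, whose highest was 44.04 CPM, as for 10.8% of all genes. Aqp1 had a log2 fold change of -0.79 ± 0.17 (adjusted p = 0.00198), Aqp11 of -0.71 ± 0.19 (adjusted p = 0.00762) and Aqp7 of -0.48 ± 0.14 (adjusted p = 0.0135). With total-count scaling, which moves the median of all genes by 0.21 here, Aqp7 was at -0.27 (adjusted p = 0.125), no longer called, and Aqp2 was called higher at 0.72 (adjusted p = 0.0228). With TMM, Aqp2 was at 0.48 ± 0.23 (adjusted p = 0.0941). It was called, at 0.62 (adjusted p = 0.0219), when alkali-treated oxalate library 2 was left out. Without the 6 libraries with Adipoq, Aqp11 was at -0.63 (adjusted p = 0.0577).

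Aqp4 averaged 21.8 ± 10.3 CPM in alkali-treated oxalate mice and 39.1 ± 6.24 CPM in alkali-treated controls (SD, n = 5 each), a log2 fold change of -0.85 ± 0.30 (adjusted p = 0.0312). The groups overlapped through alkali-treated oxalate library 33. The call was lost with total-count scaling, at -0.63 (adjusted p = 0.103). It was also lost when alkali-treated oxalate library 5, 8 or 30 or alkali-treated control library 4 or 7 was left out, with adjusted p-values from 0.0582 to 0.0857. Of the ratios of Aqp4, only that to Aqp6 passed the exact permutation test, at -1.93 (adjusted p = 0.0289). On alkali the contrast of Aqp4 with Aqp1, Aqp7 and Aqp11 did not pass the test, with differences in log2 ratio of -0.13, -0.46 and -0.20.

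Against untreated controls, alkali-treated oxalate mice had the same 5 genes called, beside 24.6% higher and 18.5% lower over all genes. The log2 fold changes were 1.01 ± 0.18 for Aqp6 (adjusted p = 0.000346), -0.97 ± 0.30 for Aqp4 (adjusted p = 0.0153), -0.79 for Aqp1 (adjusted p = 0.00154), -0.77 ± 0.19 for Aqp11 (adjusted p = 0.0037) and -0.56 ± 0.14 for Aqp7 (adjusted p = 0.00485). This comparison shares its libraries with the others. These calls depend on the scaling. With total-count scaling, which moves the median by 0.25, Aqp4 was at -0.72 (adjusted p = 0.0596) and Aqp7 at -0.31 (adjusted p = 0.0688), both no longer called. Aqp2 at 0.79 (adjusted p = 0.0120), Aqp3 at 0.42 (adjusted p = 0.00698) and Avpr2 at 0.49 (adjusted p = 0.0225) were then called higher. Aqp2 was also called without alkali-treated oxalate library 2, at 0.67 (adjusted p = 0.0143), or without untreated control library 26, at 0.63 (adjusted p = 0.0412).

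Across the 20 libraries, the gene whose log2 CPM ran most like that of Aqp4 was another member, Aqp7, with a Pearson r of 0.94 among 12171 genes of sufficient level. After each library's group mean was taken away, r was 0.77. Over the 14 libraries with Adipoq at or under 1 CPM, these values were 0.94 and 0.73. The next were Ccdc162 (r of 0.93), Dhdh (0.92), Gtf3c3 (0.91) and Gpd2 (0.91), the last being the mitochondrial glycerol-3-phosphate dehydrogenase. Libraries of a group share their condition, and r is given as a description.

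Aqp2 ran most like Gata2, a transcription factor of the collecting duct, with r of 0.87 over the 20 libraries and 0.83 after the group means were taken away. Fam110a, Pafah1b3 and Klc3 followed, with r from 0.84 to 0.85. Avpr2 had looser likenesses, led by Cables1 with r of 0.73. Among the members, Aqp1 and Aqp11 ran together, with r of 0.97 and, within groups, 0.89. Aqp2 and Aqp3 did so with 0.69 and 0.77. Aqp4 ran less closely with Aqp1 within groups, at 0.33 against 0.79 over all 20 libraries, and had an r of -0.49 with Aqp2 over the 20 libraries.

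**Figure D4:**
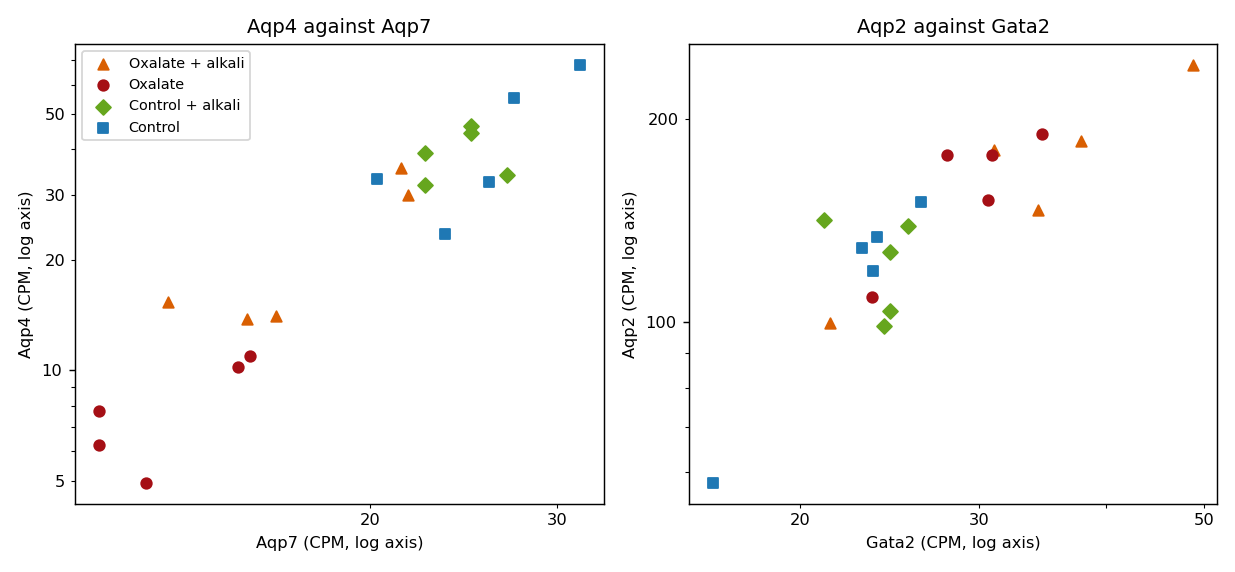
CPM of pairs of genes on log axes, 1 point per library and colour by group, over 20 libraries. Aqp4 and Aqp7 line up with r of 0.94 and Aqp2 and Gata2 with r of 0.87, both computed on log2 CPM.

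Of 16 tested genes of the vasopressin receptor and cAMP list, 4 were higher and 4 lower in untreated oxalate mice than in untreated controls and 8 were not called, shares close to those over all genes tested (26.4% higher and 23.1% lower). The median log2 fold change was 0.16. Prkar1b, a regulatory subunit of protein kinase A, had a log2 fold change of 1.12 ± 0.16 (adjusted p = 2.20e-05), and Pde4b, which breaks down cAMP, one of 0.80 ± 0.16 (adjusted p = 0.000517). The catalytic subunit Prkaca was lower, at -0.24 ± 0.06 (adjusted p = 0.00446). For alkali in oxalate mice only Crem, a cAMP-responsive transcription factor, was called in this list, lower at -1.01 ± 0.26 (adjusted p = 0.0359).

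Of the 12 genes that move or fuse Aqp2 vesicles, 7 were lower and 1 higher in untreated oxalate mice, beside 23.1% of all genes lower and 26.4% higher, with a median log2 fold change of -0.23. The motor Myo5b had a log2 fold change of -0.68 ± 0.13 (adjusted p = 0.000324) and the anchoring protein Lrba one of -0.51 ± 0.11 (adjusted p = 0.00116), while the membrane syntaxin gene Stx4a was higher at 0.33 ± 0.08 (adjusted p = 0.00155). These are genes of many cell types. For alkali in oxalate mice only Vamp3 was called, lower at -0.41 ± 0.08 (adjusted p = 0.0106).

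Of 8 transcription factors of the collecting duct, 4 were higher and 1 lower in untreated oxalate mice, beside 26.4% of all genes higher and 23.1% lower, with a median log2 fold change of 0.49. Elf3 had a log2 fold change of 1.68 ± 0.21 (adjusted p = 3.85e-06), Ehf one of 0.75 ± 0.17 (adjusted p = 0.00119) and Gata3 one of 0.60 ± 0.14 (adjusted p = 0.00214). None of the 8 was called for alkali in oxalate mice. Of 8 osmolyte and urea genes, which answer to the salt of the medulla, 2 were higher and 2 lower in untreated oxalate mice, again near the shares over all genes (26.4% and 23.1%), with a median of -0.03. The betaine transporter Slc6a12 had a log2 fold change of 1.44 ± 0.49 (adjusted p = 0.0209), the taurine transporter Slc6a6 one of -0.43 ± 0.12 (adjusted p = 0.00743), and the aldose reductase Akr1b3 one of -0.86 ± 0.32 (adjusted p = 0.0308). The Akr1b3 value rests on untreated control library 26, at 193 CPM, since the other 4 untreated controls had 38.8 to 64.9 CPM and the untreated oxalate libraries 37.6 to 49.9 CPM.

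The markers of the cells that hold the collecting duct channels had no member called lower in untreated oxalate mice. Of 7 principal cell markers 3 were higher and none lower, beside 26.4% of all genes higher and 23.1% lower. Among the 3 were the sodium channel subunits Scnn1g, at 0.57 ± 0.14 (adjusted p = 0.00185), and Scnn1b, at 0.48 ± 0.15 (adjusted p = 0.0116). Their summed level was 673 to 1126 CPM in alkali-treated oxalate mice, 707 to 851 CPM in untreated oxalate mice, 641 to 709 CPM in alkali-treated controls and 612 to 679 CPM in untreated controls. Of 8 intercalated cell markers only the proton pump subunit Atp6v0d2 was called, higher at 1.23 ± 0.22 (adjusted p = 0.000167). For alkali in oxalate mice, where Aqp6 was called higher, the intercalated anion exchanger Slc4a1 was too, at 0.95 ± 0.16 (adjusted p = 0.00424). The other 7 intercalated markers were not called, beside 1.76% of all genes higher and 2.33% lower. Aqp6 was also called higher in alkali-treated oxalate mice against either control group. Against alkali-treated controls 4 of the 8 intercalated markers were higher and none lower, beside 23.4% and 17.1% of all genes. Against untreated controls 6 of the 8 were higher and none lower, beside 24.6% and 18.5% of all genes. This was not particular to intercalated markers. Of the 7 principal cell markers, 5 were higher against alkali-treated controls and 6 against untreated controls, and none lower. Of the 7 endothelial markers, 7 and 5 were higher. For alkali in oxalate mice the principal cell marker Apela was called, higher at 0.57 ± 0.16 (adjusted p = 0.0454). With TMM and all libraries Aqp2 was not called in these comparisons. The part of cell numbers in the values of Aqp2 and Aqp6 was not tested.

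Of the aquaporins outside the 9 genes, Mip and Aqp12 had no count in any library. Aqp9, an aquaglyceroporin of liver and of white blood cells, had 6 to 23 counts per library in alkali-treated oxalate mice, 10 to 57 in untreated oxalate mice, 0 to 4 in alkali-treated controls and 0 to 3 in untreated controls. It was higher in untreated oxalate mice than in untreated controls, at a fitted log2 fold change of 3.53 ± 0.60 (adjusted p = 0.000105) that rests on these few control counts. All 6 macrophage markers were higher in that comparison, beside 26.4% of all genes. The 6 markers summed to between 643 and 2591 CPM in untreated oxalate mice and to between 113 and 152 CPM in untreated controls. Their part in the Aqp9 value was not tested. Aqp5, the neighbour of Aqp2 and Aqp6, had at most 41 counts in a library and was not called.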

How the data were processed

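Per the labels' protocols, the 20 libraries were made from poly(A) RNA with a stranded TruSeq kit. Raw counts per Ensembl mouse gene were deposited, which the authors made with bcl2fastq 2.19, Trimmomatic, STAR 2.7.1 and featureCounts, and edgeR is also named, per the submitters' processing notes. Those notes name GRCh38.p5, a human build, so the build behind the mouse identifiers is unresolved, and the strand setting is not given in the sources used here. Symbols, exon lengths and coordinates came from GENCODE M21 (GRCm38), which matched 25587 of 25700 identifiers. Promoters came from RefSeq (GRCm38.p6), and the promoter of Aqp4 was not examined.

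Groups followed the titles and treatment labels. In R 4.3.3, filterByExpr (minimum count 10) kept 15430 genes, TMM set the scaling, and edgeR 4.0.16 fitted the 4 group means over all 20 libraries together (robust quasi-likelihood test). The threshold for a call was 0.05 after Benjamini-Hochberg adjustment over all genes tested. The fit was tested on simulated data. Ratios of Aqp4 to other members used counts plus 0.5 and exact two-sided permutation tests over libraries, adjusted over 40 tests. DESeq2 1.42.0, total-count and RLE scaling, no filter, fits of 2 groups, a prior count of 2 and leaving out each library were tried, and leaving out libraries with Adipoq RNA was added after the data were seen. The members and gene lists were chosen with earlier results of these data known. All 9 members are named. From each list, up to 3 genes with the smallest p in the comparison of oxalate with control without alkali, and as many for alkali in oxalate mice, could be named with values. Of the markers, Arhgap4 and Adipoq were chosen after their values were seen. The most similar genes were the 5 with the highest Pearson r. Of these, 1 is not reported here. Predicted genes and genes with a mean log2 CPM (prior count 2) under 1 were left out of that ranking.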

Additional observations from a re-analysis of the deposited data

Results flagged for a closer look

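Aqp1 in alkali-treated oxalate library 2 had 874 CPM, far from the other 4 libraries of its group, of which the next had 548 CPM. The gap was 0.847 of the range of the group. Such a gap was looked for in 36 groups of values (9 genes in 4 groups), and chance gives about 1 in 20.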

How the results depend on the processing

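No direction was reversed in any of the 945 alternative member fold changes where the gene had been called. Called in DESeq2 were 1203 genes for alkali in oxalate mice (630 in edgeR), 3 for alkali in controls (0 in edgeR) and 26 for the interaction (0 in edgeR). With total-count scaling 7 members were called for oxalate without alkali (4 with TMM), 1 for alkali in oxalate mice (2 with TMM), and Aqp4 was at -0.63 for oxalate against control on alkali and at -0.72 for alkali-treated oxalate against untreated control. The median of all genes moved by 0.30, 0.21 and 0.25 with that scaling in the 3 comparisons of oxalate with control. In a fit of the 2 oxalate groups only, 0 members and 29 genes were called for alkali, and Aqp4 was at 1.45. Without the libraries with Adipoq above 1 CPM, 1 member and 1263 genes were called for alkali in oxalate mice, 3219 genes for oxalate on alkali (6237 in all libraries) and 1 gene for the interaction. The causes were not tested.

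With libraries left out 1 at a time, alkali in oxalate mice gave 0 to 2 members, 185 to 1160 genes and an Aqp4 log2 fold change of 1.19 to 1.57. The lowest gene count came without untreated oxalate library 12 and the highest without library 32. Alkali in controls gave 0 to 1 genes and the interaction 0 to 3. Aqp4 ranged from -2.56 to -2.17 for oxalate without alkali, from -1.10 to -0.72 for oxalate on alkali and from -1.22 to -0.74 for alkali-treated oxalate against untreated control. The number of partners against which the Aqp4 ratio passed ran from 0 to 7 for oxalate without alkali, from 0 to 6 for alkali in oxalate mice, from 1 to 3 for oxalate on alkali and from 0 to 2 for alkali-treated oxalate against untreated control. The log2 ratio differences of oxalate without alkali kept their sign, for Aqp2 between -3.05 and -2.49 and for Aqp7 between -1.54 and -1.23. RLE scaling, no filter and a ratio prior count of 2 changed none of these counts past 1.5 times. Counts of Aqp8, Aqp9 and Aqp5 are low, and depth limits what they can show. No paired analysis was possible because the groups do not share the numbers in their titles.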
